A study of Mus musculus with 12 samples.

Results

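A set of 8 genes was followed: Slc7a2, Nos2, Gch1, Ass1, Arg1, Arg2, Irg1 and Ido1, the enzymes and the transporter through which inflamed cells take up and spend arginine, make nitric oxide, make itaconate and degrade tryptophan. They were taken by gene symbol from the 23329 genes listed for every library, and all 8 were found. The data were mRNAseq counts of stromal cells cultured from mouse small intestine (labelled as intestinal myofibroblasts), of mice on the C57BL6/J background, from E14.5 embryos or from adult mice of unstated age, and the cells were used at passage 2 to 3. The cultures received lipopolysaccharide (LPS) of E. coli O111:B4 for 6 h, at a concentration given as 10 µg/µl for these cultures and as 10 µg/ml for another assay, or PBS as vehicle. Each of the 4 groups (embryonic PBS, embryonic LPS, adult PBS and adult LPS) held 3 libraries from independent cultures, made from pooled embryos or from adult mice, with no transgene or deletion described. The question was how the 8 genes responded to LPS in each stroma, and whether the stromas differed.

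Arginine enters cells through cationic amino acid transporters and is then shared between enzymes that compete for it. Inducible nitric oxide synthase turns it into nitric oxide and citrulline with tetrahydrobiopterin as cofactor, citrulline can be built back into arginine, and the arginases split arginine into ornithine and urea. Itaconate is drawn from the tricarboxylic acid cycle and tryptophan is broken down to kynurenine by separate enzymes, and these genes are known from inflamed macrophages as well as from stromal and epithelial cells of the gut.

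Libraries held between 18850224 counts (adult PBS replicate 2) and 32672370 counts on the sense strand, so that 3 counts, taken as the detection floor, equalled between 0.0896 and 0.144 CPM (counts scaled to a library total of 1e+06 after TMM normalization). Intervals and floors cover counting error only. The fibroblast and myofibroblast markers were high in every library, with summed levels of 11 genes between 21554 and 42635 CPM, and replicate 2 was the lowest of its group in all 4 groups. Pdgfra, a receptor of mesenchymal cells, was the exception in embryonic stroma, at a mean of 3.49 CPM with PBS and 4.18 CPM with LPS against 45.9 and 75.7 CPM in adult stroma. The cultures also held macrophage transcripts. In PBS libraries 1, 2 and 3, the summed level of 14 macrophage markers was 266, 485 and 3093 CPM in embryonic stroma and 199.7, 20.5 and 49.6 CPM in adult stroma. With LPS it was 211, 1083 and 2307 CPM in embryonic stroma and 215, 16.7 and 50.2 CPM in adult stroma, and no marker was at 0 throughout a group. Lymphocyte and granulocyte markers summed to at most 1.48 CPM. Endothelial markers summed to between 9.86 and 37.0 CPM in embryonic libraries, but to 20.9, 1820 and 392 CPM in adult PBS libraries 1, 2 and 3 and to 15.9, 1751 and 365 CPM in the adult LPS libraries. In such mixed bulk samples, fewer cells of a type and less RNA per cell cannot be told apart.

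In embryonic stroma with LPS, Slc7a2, Nos2, Gch1 and Irg1 were called higher, and in adult stroma Nos2, Irg1 and Arg2 were. The adult log2 fold changes of Slc7a2 (4.06) and Gch1 (1.91) and the embryonic one of Arg2 (2.44) were also positive but not called. None of the 5 tested genes passed the test of a stage difference in the LPS response. Irg1 and Nos2 moved from at most 16 counts in a PBS library to between 190 and 46880 in an LPS library, Slc7a2 and Gch1 rose from levels already present with PBS, and Arg1, Ass1 and Ido1 did not reach the level required for testing in all libraries of any group. Called here means an adjusted p under 0.05 in edgeR's quasi-likelihood test together with a log2 change of 2 or more in size, among the 13038 genes with more than 0.5 CPM in all libraries of at least 1 group. The filter kept 5 of the 8 genes. In embryonic stroma 4 of the 8 were called higher, where 1.87% of all tested genes were. In adult stroma 3 of the 8 were called higher, where 0.422% of all tested genes were. Libraries of the same stage and replicate number deviated together, so the fit was repeated with those pairs of libraries as blocks. With that block 5 of the 8 were called in embryonic stroma (3.02% of all genes called higher) and 4 in adult stroma (1.6%). With the 6 libraries of a stage alone and no block, 0 of the 8 were called in embryonic and 4 in adult stroma. The share of all tested genes called in those fits of a stage alone is not given here. The filter admitted Nos2, Irg1 and Arg2 only through groups in which they were high, so these counts describe the genes and are no test of the set. Over the 5 tested genes the log2 fold change had a median of 4.57 (embryonic) and 4.06 (adult), beside -0.00 and -0.01 over all tested genes. These medians carry the same limit and are likewise no test of the set.

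**Figure D1:**
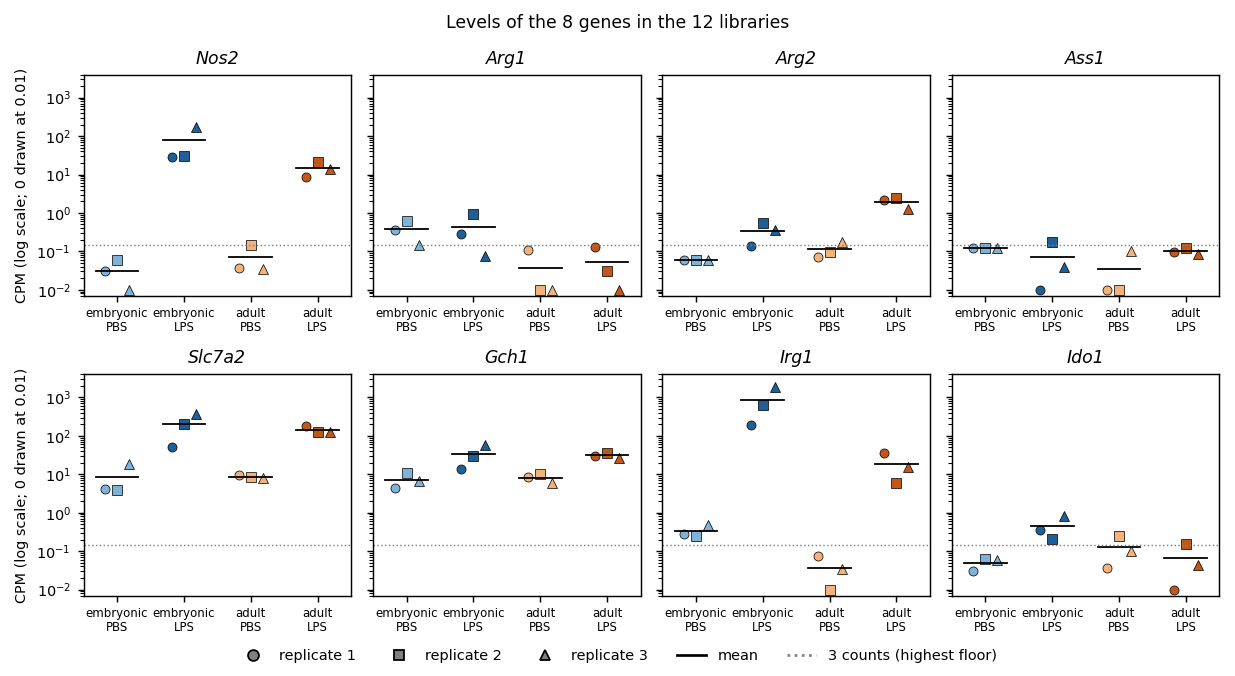
Level of each of the 8 genes in every library (CPM, log axis), with 1 point per library, the mean of each group as a bar and 3 counts in the shallowest library as a dotted line (a library without counts is drawn at the bottom of the axis). Slc7a2, Nos2, Gch1 and Irg1 sit higher in all 3 LPS libraries than in the PBS libraries of the same stage, whereas the points of Arg1, Ass1 and Ido1 lie below 1 CPM.

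Promoter sequence was held for Irg1, Gch1 and Ass1 and is shown because the first pair rose with LPS in embryonic stroma while Ass1 was barely counted. Each line gives the 250 bases before the annotated start (RefSeq, GRCm38.p6), in the direction of transcription, with capitals for every match to 6 motifs searched on both strands. No entry was held for Nos2, Arg1, Arg2, Slc7a2 or Ido1.
Irg1, chr14:103046762-103047011, plus strand: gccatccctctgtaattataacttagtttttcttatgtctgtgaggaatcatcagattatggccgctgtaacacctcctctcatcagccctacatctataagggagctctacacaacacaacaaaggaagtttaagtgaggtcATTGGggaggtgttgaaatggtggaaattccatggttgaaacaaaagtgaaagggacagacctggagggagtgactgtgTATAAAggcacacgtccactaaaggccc
Gch1, chr14:47189414-47189663, minus strand: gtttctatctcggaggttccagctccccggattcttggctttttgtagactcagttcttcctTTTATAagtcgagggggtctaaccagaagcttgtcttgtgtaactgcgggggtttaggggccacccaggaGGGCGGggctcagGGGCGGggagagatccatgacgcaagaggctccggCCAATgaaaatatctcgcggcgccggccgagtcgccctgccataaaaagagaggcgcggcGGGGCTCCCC
Ass1, chr2:31470020-31470269, plus strand: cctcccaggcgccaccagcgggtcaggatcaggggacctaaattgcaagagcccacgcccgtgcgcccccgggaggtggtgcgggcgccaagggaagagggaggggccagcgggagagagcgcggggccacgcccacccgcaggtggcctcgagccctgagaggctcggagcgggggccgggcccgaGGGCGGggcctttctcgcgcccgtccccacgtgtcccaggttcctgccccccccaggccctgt
In the Irg1 promoter the capitals mark a TATA box (TATAAA) at bases -28 to -23 and a CCAAT box on the opposite strand at -107 to -103, and its GC content was 44.4%. In Gch1 they mark, from the start outwards, a match to the NF-kB consensus at -10 to -1, a CCAAT box at -70 to -66, GC boxes (GGGCGG) at -105 to -100 and -118 to -113, and a TATA box on the opposite strand at -188 to -183, in a window of 59.2% GC. Ass1 held 1 GC box, at -63 to -58, and 75.6% GC, beside a median of 52.4% over all promoters. Among 32851 promoters of the same length, 7.25% held the NF-kB consensus, 12.4% the TATA box, 33.8% the CCAAT box and 32.7% the GC box, while the interferon-stimulated element (GAAANNGAAA, in 2.98%) and the GAS element (TTCNNNGAA, in 7.02%) had no match in these 3 windows. Such matches are descriptions of letters and not evidence of binding.

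Slc7a2 (chr8:40862341-40922070, GRCm38.p6), the inducible cationic amino acid transporter that brings arginine into the cell, was present before LPS. In embryonic PBS libraries 1, 2 and 3 it was counted at 4.09, 3.90 and 18.2 CPM, and in the LPS libraries at 50.1, 205 and 365 CPM. In adult stroma it was counted at 9.74, 8.33 and 8.04 CPM with PBS and at 183, 126 and 127 CPM with LPS. Every LPS library lay above every PBS library of its stage. Ranges apart in either direction were shown by 11.6% of tested genes in embryonic and 14.49% in adult stroma. Embryonic replicate 3 was the highest of its group under both treatments. Between libraries of the same number the LPS level was 12.2, 52.7 and 20.1 times the PBS level in embryonic cultures 1, 2 and 3, and 18.8, 15.1 and 15.8 times in adult cultures, a narrower spread. Slc7a2 rose in embryonic stroma by a log2 fold change of 4.57 (SE 0.79, adjusted p = 0.0135, edgeR). The adult log2 fold change was 4.06 (SE 0.78, adjusted p = 0.0520, edgeR), which missed the threshold, and with the block it was called at 4.04 (SE 0.33, adjusted p = 0.000382, edgeR), as it was in DESeq2 (4.05, adjusted p = 3.52e-07). The embryonic call was lost without embryonic PBS replicate 1 (adjusted p = 0.0683) or replicate 2 (adjusted p = 0.0511), and an adult call was gained without embryonic PBS replicate 3 (adjusted p = 0.0191), embryonic LPS replicate 1 (0.0206) or embryonic LPS replicate 3 (0.0311), all in edgeR. The embryonic value was 5.69 without embryonic PBS replicate 3 and 3.82 without embryonic LPS replicate 3.

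Nos2 (chr11:78920787-78960226), inducible nitric oxide synthase, was essentially uncounted before LPS. Embryonic PBS libraries 1, 2 and 3 held 1, 2 and 0 counts and adult PBS libraries 1, 3 and 1 counts, at or under the floor. With LPS the embryonic libraries held 810, 860 and 4440 counts, equal to 28.4, 29.7 and 172 CPM, and the adult libraries 265, 683 and 320 counts, equal to 8.62, 20.98 and 13.8 CPM. All 6 LPS libraries thus stood above all PBS libraries, and embryonic LPS replicate 3 stood apart from the other embryonic LPS libraries. Over summed counts the LPS to PBS ratio of CPM was 2433 in embryonic stroma (95% exact counting interval 832 to 11801) and 227 in adult stroma (97.1 to 701). Nos2 rose by a fitted log2 fold change of 11.12 in embryonic stroma (SE 1.15, adjusted p = 0.00162, edgeR) and of 7.70 in adult stroma (SE 1.05, adjusted p = 0.0112, edgeR), values that depend on the prior count because the PBS groups were near 0. The embryonic value was 9.69 without embryonic LPS replicate 3 and 11.95 without embryonic PBS replicate 2, and the adult one 8.52 without adult PBS replicate 2. The adult call was lost without any 1 of adult PBS replicates 1, 2 and 3, at adjusted p = 0.0891, 0.0709 and 0.114 in edgeR, while with the block it held without each culture (adjusted p at most 0.00110).

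Gch1 (chr14:47153895-47189413, minus strand), GTP cyclohydrolase, the first enzyme of tetrahydrobiopterin synthesis, changed the least of the induced genes. It was counted at 4.28, 10.6 and 6.66 CPM in embryonic PBS libraries 1, 2 and 3 and at 13.8, 29.8 and 58.9 CPM with LPS. Adult libraries held 8.60, 10.1 and 5.99 CPM with PBS and 30.0, 35.4 and 27.3 CPM with LPS. The groups did not overlap in either stroma, and the LPS level was 3.24, 2.82 and 8.84 times the PBS level in embryonic cultures 1, 2 and 3 and 3.49, 3.52 and 4.56 times in adult cultures. Gch1 rose in embryonic stroma by a log2 fold change of 2.25 (SE 0.49, adjusted p = 0.0389, edgeR), a call that was lost when any 1 library other than embryonic LPS replicate 1 was left out (log2 fold changes of 1.57 to 2.65, adjusted p between 0.0505 and 0.151 over those 11 libraries). The lowest of those values was that without embryonic LPS replicate 3. In adult stroma the log2 fold change was 1.91 (SE 0.49, adjusted p = 0.167, edgeR). With the block it was 2.11 in embryonic stroma (SE 0.30, adjusted p = 0.00295, edgeR) and 1.93 in adult stroma (SE 0.29, adjusted p = 0.00746), the latter just under the fold required for a call.

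Ass1 (chr2:31470270-31520670), argininosuccinate synthase, which begins the rebuilding of arginine from citrulline, was counted at 5 or fewer in every library. Embryonic libraries 1, 2 and 3 held 4, 4 and 4 counts with PBS and 0, 5 and 1 with LPS, and adult libraries held 0, 0 and 3 with PBS and 3, 4 and 2 with LPS. LPS and PBS overlapped within each stage, and the highest library, embryonic LPS replicate 2, reached 0.173 CPM. The embryonic and adult ranges were apart with PBS, as for 24.34% of tested genes. Embryonic against adult PBS gave a ratio of 3.11 (95% exact counting interval 0.840 to 17.2). In the edgeR fit without a filter on low counts that stage difference did not pass (adjusted p = 0.560). The ratio of LPS to PBS was 0.597 in embryonic stroma (95% exact counting interval 0.184 to 1.72) and 2.69 in adult stroma (0.671 to 15.4), so no difference was detectable at this depth.

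Arg1 (chr10:24915207-24927470, minus strand), the cytosolic arginase of liver and of alternatively activated macrophages, was counted mainly in embryonic stroma and at a low level. Embryonic libraries 1, 2 and 3 held 12, 20 and 5 counts with PBS and 8, 27 and 2 with LPS, so that the treatments overlapped and the order of the cultures was the same under both. Adult libraries held 3, 0 and 0 counts with PBS and 4, 1 and 0 with LPS. LPS against PBS gave a ratio of 1.19 in embryonic stroma (95% exact counting interval 0.737 to 1.94). Embryonic against adult stroma gave a ratio of 9.60 with PBS (3.04 to 48.7) and 7.68 with LPS (3.01 to 25.0), and the embryonic and adult ranges were apart with PBS, as for 24.34% of tested genes, but overlapped with LPS. In the edgeR fit without a filter on low counts, which took in 18810 genes, the stage difference of Arg1 did not pass (adjusted p = 0.245 with PBS and 0.247 with LPS).

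Arg2 (chr12:79130788-79156301), the mitochondrial arginase of many tissues, differed from the other 7 genes in having its highest group mean in adult LPS. Adult libraries 1, 2 and 3 held 2, 2 and 5 counts with PBS and 66, 79 and 29 with LPS, equal to 2.15, 2.43 and 1.25 CPM. Embryonic libraries held 2, 2 and 2 counts with PBS and 4, 16 and 9 with LPS, equal to 0.140, 0.552 and 0.349 CPM. Both LPS groups lay above their PBS groups, and all adult LPS libraries lay above all embryonic LPS libraries. Arg2 rose in adult stroma by a log2 fold change of 4.03 (SE 0.54, adjusted p = 0.0101, edgeR), with a ratio of summed counts of 17.3 (95% exact counting interval 8.92 to 38.5). The call was lost without any 1 of adult PBS replicates 1, 2 and 3 (adjusted p = 0.0733, 0.0709 and 0.0647, edgeR) but held with the block (3.96, SE 0.44, adjusted p = 0.00184). In embryonic stroma the log2 fold change was 2.44 (SE 0.58, adjusted p = 0.0571, edgeR), and it was called with the block (2.40, SE 0.59, adjusted p = 0.0358) or without embryonic LPS replicate 1 (2.82, adjusted p = 0.0152).

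The strand mattered for Arg2. Its 3′ end overlaps Vti1b, a gene of vesicle fusion on the opposite strand (chr12:79156017-79172685), by 285 bases. Reads on the strand opposite to Arg2 numbered 68, 89 and 84 in embryonic PBS libraries 1, 2 and 3, 82, 65 and 49 in embryonic LPS, 70, 38 and 103 in adult PBS and 94, 69 and 73 in adult LPS. They made up 97.6% of the reads of both strands in embryonic PBS, 87.1% in embryonic LPS, 95.9% in adult PBS and 57.6% in adult LPS, against 1.14% to 1.98% of the gene counts in whole libraries, and the antisense ranges of the 4 groups overlapped. When the authors' column for either strand was used, the log2 fold change of Arg2 was 2.20 in adult stroma (adjusted p = 0.0323, edgeR) and 0.16 in embryonic stroma (adjusted p = 1.00). At Arg2 that column was not the sum of the strands. It held 14 counts in embryonic PBS replicate 1, beside 2 sense and 68 antisense counts. In adult LPS libraries 1, 2 and 3 it held 58, 64 and 25 counts, fewer than the 66, 79 and 29 on the sense strand. In adult LPS the column thus left out Arg2 sense reads. In embryonic libraries and in adult PBS it exceeded the sense counts and so held reads of the opposite strand. Embryonic libraries 1, 2 and 3 held 14, 22 and 15 counts in it with PBS, beside 2, 2 and 2 sense counts. With LPS they held 15, 20 and 13, beside 4, 16 and 9 sense counts. The part of the overlap with Vti1b in that column was not tested.

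**Figure D2:**
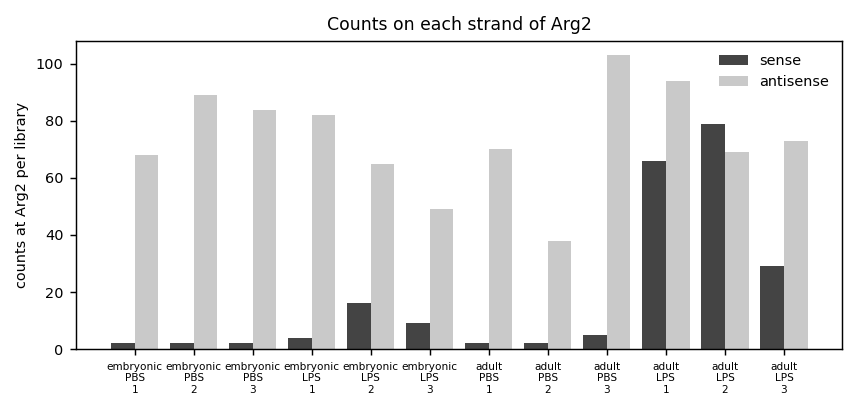
Counts of Arg2 on the sense strand and on the opposite strand in each of the 12 libraries. Sense counts reach 79 in adult LPS and stay at 16 or fewer in the other 3 groups, whereas opposite-strand counts lie between 38 and 103 in all of them.

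Irg1 (current symbol Acod1, chr14:103047012-103056573), which makes itaconate from cis-aconitate, went from near the floor to as much as 1819 CPM. Embryonic PBS libraries 1, 2 and 3 held 9, 8 and 16 counts and the LPS libraries 5513, 18466 and 46880 counts, equal to 193, 637 and 1819 CPM. Adult PBS libraries held 2, 0 and 1 counts and the LPS libraries 1087, 190 and 368 counts, equal to 35.4, 5.84 and 15.9 CPM. No LPS library overlapped a PBS library, and the embryonic libraries lay above the adult ones under both treatments. Ranges apart between the stages, in either direction, were shown by 24.34% of tested genes with PBS and 25.14% with LPS. The ratio of LPS to PBS was 2565 in embryonic stroma (95% exact counting interval 1826 to 3727) and 491 in adult stroma (168 to 2385). Irg1 rose by a log2 fold change of 11.36 in embryonic stroma (SE 1.18, adjusted p = 0.00162, edgeR) and of 8.79 in adult stroma (SE 1.31, adjusted p = 0.0161, edgeR). The embryonic value was 10.22 without embryonic LPS replicate 3, and the adult one 7.98 without adult LPS replicate 1 and 9.63 without adult PBS replicate 1. The adult call was lost without any 1 of adult PBS replicates 1, 2 and 3 (adjusted p = 0.103, 0.0946 and 0.147, edgeR) and held with the block without each culture (adjusted p at most 0.00171).

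Ido1 (chr8:24584133-24596952, minus strand), indoleamine 2,3-dioxygenase, the first step of tryptophan breakdown, was counted above 5 only in embryonic LPS. Embryonic libraries 1, 2 and 3 held 1, 2 and 2 counts with PBS and 10, 6 and 21 with LPS, and adult libraries 1, 5 and 3 with PBS and 0, 5 and 1 with LPS. The embryonic groups did not overlap and the adult groups did. The ratio of LPS to PBS was 8.84 in embryonic stroma (95% exact counting interval 3.47 to 28.8) and 0.597 in adult stroma (0.175 to 1.88). In the edgeR fit without a filter on low counts the embryonic log2 fold change was 3.06 (SE 0.96, adjusted p = 0.227), which did not pass.

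**Figure D3:**
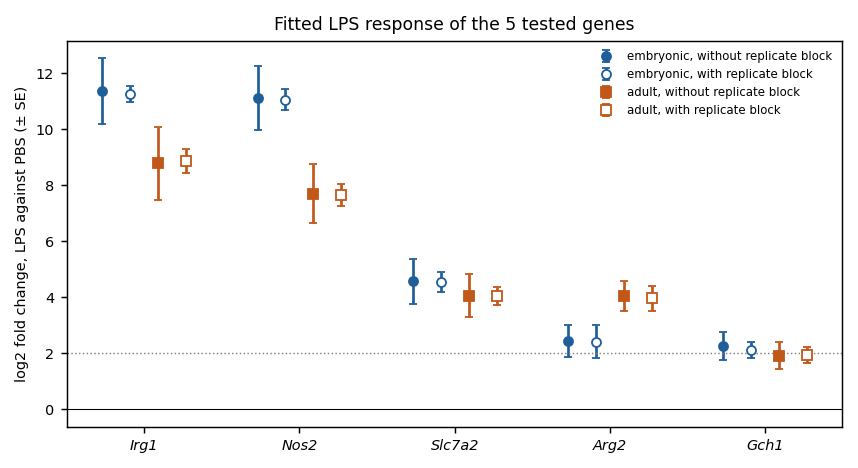
Log2 fold change of LPS against PBS (edgeR, with its SE as bars) of the 5 tested genes in embryonic and adult stroma, without and with the replicate number as a block. The estimates hardly move between the fits, the bars shorten with the block except for embryonic Arg2, and Nos2 and Irg1 stand at 7.66 or more throughout. The dotted line marks the fold required for a call.

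The response of a gene was then compared between the stages by an interaction test. The embryonic log2 fold change exceeded the adult one by 3.42 for Nos2 (SE 2.08), 2.57 for Irg1 (SE 2.81), 0.51 for Slc7a2 (SE 0.98) and 0.34 for Gch1 (SE 0.67), and the difference was -1.59 for Arg2 (SE 0.85). None of these differences passed: the adjusted p was 1.00 for each in edgeR, where 0% of all tested genes passed. DESeq2 called 0 of the 8, where 25 of 13038 tested genes were called. In edgeR 0 of the 5 tested genes had an unadjusted p under 0.05, as 2.25% of all genes had. With the block 0.844% of all genes passed and again 0 of the 8. Of the 5 tested genes Nos2 was the nearest (3.41, unadjusted p = 0.0276, adjusted p = 0.473, edgeR). In that fit 8.92% of all genes had an unadjusted p under 0.05. Irg1 was further off (2.39, SE 1.49, adjusted p = 0.721, edgeR). Leaving out single libraries moved the difference between 2.01 and 4.26 for Nos2 and between 1.44 and 3.38 for Irg1, with the lowest values without embryonic LPS replicate 3 and the highest without embryonic PBS replicate 2 and adult LPS replicate 1. With the block, leaving out single cultures moved that of Nos2 between 1.505 and 4.66. For Slc7a2 it was 1.63 without embryonic PBS replicate 3, and for Slc7a2 and Gch1 it turned to -0.23 and -0.34 without embryonic LPS replicate 3.

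Levels were also set against each other between the stages at the same treatment. With PBS 0 of the 8 genes were called, where 2.23% of all tested genes were, with log2 differences of embryonic against adult stroma of 2.97 for Irg1 (adjusted p = 0.378, edgeR), -1.02 for Nos2, -0.88 for Arg2, -0.20 for Gch1 and 0.00 for Slc7a2. With LPS 2 of the 8 were called, where 2.95% of all tested genes were (1.91% higher and 1.04% lower in embryonic LPS). Irg1 was higher in embryonic LPS by 5.54 on the log2 scale (SE 0.90, adjusted p = 0.0109, edgeR), with a ratio of CPM of 44.7 (95% exact counting interval 42.6 to 47.0), which does not cover the spread between libraries. Without embryonic LPS replicate 3 the log2 difference was 4.40, without adult LPS replicate 1 it was 6.35, and without adult LPS replicate 3 it did not pass (5.42, adjusted p = 0.0660). Arg2 was lower by -2.47 (SE 0.47, adjusted p = 0.0205, edgeR), with a ratio of 0.173 (0.113 to 0.257), and did not pass without embryonic LPS replicate 3 (adjusted p = 0.0557), adult LPS replicate 1 (0.0657) or adult LPS replicate 2 (0.0619). On either-strand counts the Arg2 difference was -1.51, under the fold required.

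Nos2 was higher in embryonic LPS by 2.41 (SE 0.69, adjusted p = 0.0712, edgeR), which missed the threshold. It passed in DESeq2 (2.42, adjusted p = 0.0135), in edgeR's likelihood ratio test (2.41, adjusted p = 0.0264), and without embryonic LPS replicate 1 (2.80, adjusted p = 0.0472) or replicate 2 (2.79, adjusted p = 0.0440). Without embryonic LPS replicate 3, the highest library, it was 0.98 (adjusted p = 0.295, edgeR). Slc7a2 (0.51, adjusted p = 0.726) and Gch1 (0.14, adjusted p = 0.901) did not pass, and their LPS ranges overlapped between the stages. Non-overlapping LPS ranges between the stages, as found for Irg1, Nos2 and Arg2, were shared by 25.14% of all tested genes. In mean CPM, with SD over 3 libraries, the LPS groups stood at 883 ± 840 (embryonic) and 19.0 ± 15.0 (adult) for Irg1, 76.8 ± 82.7 and 14.47 ± 6.21 for Nos2, and 0.347 ± 0.206 and 1.94 ± 0.614 for Arg2, so that for Nos2 the gap between the means was smaller than the larger SD.

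Divided by the annotated exon length, the levels could be ordered between genes. In embryonic LPS the mean level in CPM per kilobase of exon was 337 ± 320 (SD, n = 3) for Irg1, 22.6 for Slc7a2, 17.4 for Nos2 and 5.47 for Gch1, and the other 4 genes were at 0.251 or less. In adult LPS Slc7a2 came first at 15.9 ± 3.56, followed by Irg1 at 7.25 ± 5.72, Gch1 at 4.95, Nos2 at 3.28 and Arg2 at 1.36. The steps from Irg1 to Slc7a2, from Slc7a2 to Nos2 and from Nos2 to Gch1 in embryonic LPS, and from Irg1 to Gch1 in adult LPS, were smaller than the larger SD of the pair.

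The macrophage transcripts varied along with some of the genes. Across embryonic LPS libraries 1, 2 and 3 the macrophage markers stood in the same order as Irg1, Nos2, Slc7a2 and Gch1, and Irg1 amounted to 0.913, 0.589 and 0.788 CPM per CPM of macrophage markers. In adult LPS libraries it amounted to 0.164, 0.351 and 0.316, all under the embryonic values, and the adult library with the most macrophage markers, replicate 1, also had the most Irg1. Nos2 had 0.134, 0.0274 and 0.0747 CPM per marker CPM in embryonic LPS and 0.0401, 1.26 and 0.275 in adult LPS. In adult LPS, Nos2 was thus highest in replicate 2, which had the fewest macrophage transcripts and the most endothelial ones. The order of its 3 adult LPS libraries was that of the endothelial markers. It was also the reverse of the epithelial and mesothelial markers, which summed to 970, 230 and 420 CPM. In embryonic LPS the endothelial markers, at 37.0, 33.1 and 29.5 CPM, ran in the opposite order to Nos2. Orders of 3 libraries are descriptions only. Slc7a2 had 0.237, 0.190 and 0.158 CPM per marker CPM in embryonic LPS and 0.849, 7.55 and 2.53 in adult LPS, and Gch1 0.0654, 0.0275 and 0.0255 against 0.140, 2.13 and 0.544. The part of these cell types in the values of the 8 genes was not tested.

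**Figure D4:**
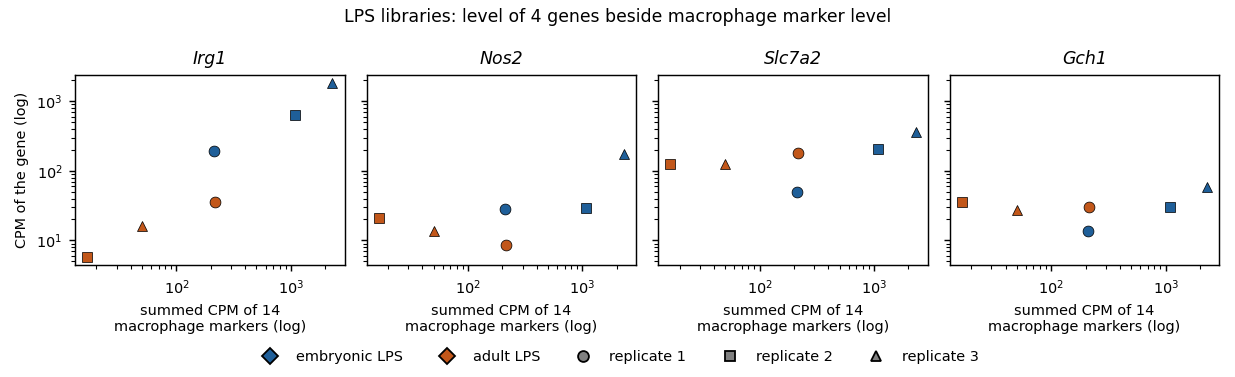
Level of the induced genes in each LPS library (CPM, log axis) against the summed level of 14 macrophage markers in the same library (CPM, log axis), with 1 point per library. Over both stages Irg1 runs from 5.84 CPM at 16.7 CPM of markers to 1819 CPM at 2307 CPM of markers. Slc7a2 runs from 50.1 to 365 CPM across the embryonic range and stays between 126 and 183 CPM across the adult range. At similar marker levels, 211 CPM in embryonic replicate 1 and 215 CPM in adult replicate 1, Irg1 stands at 193 and 35.4 CPM.

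As a description over the 12 libraries, which share treatment and culture, the genes most like each tested gene were named by Pearson's r of log2 CPM. They were Birc3 (0.985), Ccl5 (0.983) and Cxcl10 (0.979) for Nos2, and Tnf (0.991), Cd69 (0.990) and Il12b (0.986) for Irg1. Gbp6 (0.975), Map3k8 (0.972) and Ikbke (0.972) were nearest to Slc7a2, and Psmd10 (0.979), Tnfaip2 (0.957) and Slc7a11 (0.955) to Gch1. Arg2 was nearest to Tslp (0.954), 1600029D21Rik (0.938) and Ptch1 (0.933). Among the genes themselves r was highest between Nos2 and Irg1 (0.934) and lowest between Arg2 and Irg1 (0.513).

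Around the 8 genes, 84 other genes of the same pathways were looked up, and 69 of them were tested. With LPS 1 of the 69 was called in embryonic stroma (1.45%, beside 1.93% of all tested genes in either direction) and 0 in adult stroma. With the block the numbers were 2 (2.9%, beside 3.41%) and 0 (beside 1.62%), and the stage difference called 0 in either fit. At an adjusted p under 0.05 alone, the block also admitted changes under the fold threshold, of which Slc7a7 is given next.

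For arginine uptake, 5 other genes were tested and 0 were called in either stroma. Slc7a1, the constitutive cationic transporter, was at 177 ± 46.6 CPM (SD, n = 3) in embryonic PBS, 177 ± 27.8 in embryonic LPS, 161 ± 15.0 in adult PBS and 146 ± 4.67 in adult LPS. The ranges of Slc7a1 with LPS and PBS overlapped in embryonic stroma. Slc7a7, an exporter of cationic amino acids that was chosen after its values were seen, went from 17.2 ± 5.08 to 48.3 ± 31.4 CPM in embryonic stroma, with a log2 fold change of 1.49 (adjusted p = 0.167, edgeR), or of 1.27 with the block (adjusted p = 0.0117). Of the nitric oxide synthases, neither Nos1 nor Nos3 passed the filter, and Nos3, the endothelial enzyme, averaged 1.76 CPM in adult PBS and 1.58 CPM in adult LPS.

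No cofactor or recycling enzyme around Gch1 and Ass1 was called. Of 6 tested genes of tetrahydrobiopterin synthesis 0 were called, and Spr, sepiapterin reductase, was at 36.6 ± 4.52, 34.4 ± 1.74, 34.9 ± 1.47 and 38.8 ± 4.95 CPM in embryonic PBS, embryonic LPS, adult PBS and adult LPS. Of 3 tested genes of citrulline recycling and the urea cycle 0 were called. Asl, argininosuccinate lyase, which acts after Ass1, was at 32.1 ± 2.76, 30.4 ± 1.96, 27.3 ± 2.78 and 26.999 ± 5.32 CPM in the same order, while Ass1 held at most 5 counts in a library. The 14 tested genes of ornithine, polyamines and proline, downstream of the arginases, gave 0 calls, with Oat, ornithine aminotransferase, between group means of 252 and 314 CPM and Sat1, which acetylates polyamines, between 218 and 255 CPM. Of the 5 tested genes for other uses of arginine 0 were called, among them Ddah1, which clears methylated arginines, with group means between 171 and 234 CPM.

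Beside Irg1, 18 genes of the tricarboxylic acid cycle and of itaconate handling were tested and 0 were called. Cs, citrate synthase, was at 270.5 ± 18.5, 274 ± 8.19, 244 ± 9.23 and 256 ± 17.8 CPM in embryonic PBS, embryonic LPS, adult PBS and adult LPS. Of 7 tested genes of tryptophan metabolism beside Ido1, 1 was called. Ido2, a relative of Ido1, rose in embryonic stroma from 0.0911 ± 0.110 to 1.64 ± 0.748 CPM (log2 fold change 4.11, adjusted p = 0.0329, edgeR). In adult stroma it was at 0.187 ± 0.0523 and 1.64 ± 1.01 CPM (3.12, adjusted p = 0.189, edgeR). Kynu, kynureninase, was at 1.13 ± 1.49 and 7.21 ± 9.11 CPM in embryonic PBS and LPS (log2 fold change 2.67, adjusted p = 0.552 without the block, and 2.66, adjusted p = 0.0203 with it, edgeR), and averaged 0.0390 CPM in adult LPS.

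**Figure D5:**
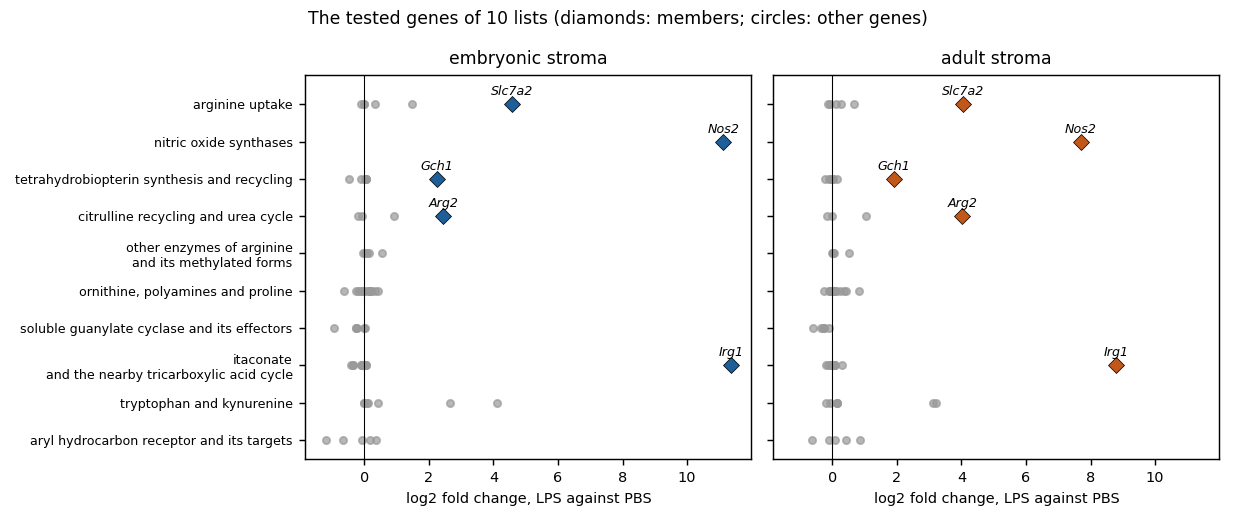
Log2 fold change of LPS against PBS (edgeR, without the block) for the tested genes of each pathway list in embryonic and adult stroma, with the 5 tested genes of the set marked. Most of the 69 other genes sit near 0, and Ido2 is the one called among them.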

How the data were processed

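The authors sequenced stranded poly(A) libraries as single 75 bp reads, trimmed them, mapped them to GRCm38.p6 with STAR (reads with more than 1 mismatch or several map positions were dropped), and deposited raw counts per gene for either strand, the antisense strand and the sense strand. Sense counts were used here. Unique mapping leaves out reads shared by near-identical copies.

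The tests were made with edgeR 4.0.16 and limma 3.58.1 under R 4.3.3 (TMM factors, CPM above 0.5 in all libraries of at least 1 group, quasi-likelihood test over all 12 libraries, Benjamini-Hochberg adjustment over 13038 genes). An adjusted p under 0.05 with a log2 change of 2 or more in size made a call, without a fold threshold for the interaction. The SE was the log2 fold change divided by the square root of F. DESeq2 1.42.0 and other settings were alternatives. The 8 genes, the marker lists and the pathway lists were chosen with earlier results of these data known. Named genes were the 8, those called in a pathway list, up to 2 abundant genes of each list, and the 3 nearest by correlation. The values of 1 gene that this rule names are not reported here, and Slc7a7 was added after its values were seen.

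Group and replicate number came from the labels. Deviations from group means correlated between libraries of the same stage and number (r from 0.610 to 0.850), and at most at 0.0218 between other numbers. The low values between other numbers are in part fixed, because the deviations of 3 libraries from their mean cancel out. They are no separate support. From the values for the same number, the numbers were taken to pair LPS with PBS. That pairing comes from the data, and the sources used here do not state it. No pair of replicates agreed within sampling noise (chi-square per gene 31.6 to 278). Reads assigned to no gene made up 17.4% to 19.9% of a library and were left out. The scripts were tested on simulated data. Python 3.11.15 and matplotlib 3.10.9 drew the figures.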

Additional observations from a re-analysis of the deposited data

Results flagged for a closer look

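Antisense reads, apart from the sense counts tested in the comparisons, appeared with LPS at genes where the PBS libraries had few or none. Nos2 had 31 antisense counts over the embryonic LPS libraries, which was 0.505% of its reads on both strands. Slc7a2 had 72 in embryonic LPS (0.427%) and 60 in adult LPS (0.472%). Irg1 had 348 in embryonic LPS (0.489%). These shares lie below the 1.14% to 1.98% of antisense counts in whole libraries.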

How the results depend on the processing

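With the libraries of the contrast alone, 0 of the 8 genes were called in embryonic LPS against PBS, 4 in adult LPS against PBS and 0 in embryonic against adult LPS. At an adjusted p under 0.01 the numbers were 2 in embryonic stroma, 0 in adult stroma and 0 between the LPS groups. On either-strand counts 1 was called between the LPS groups, where 384 of 13148 tested genes were. The total of all genes called also moved with the setting. Of 13038 genes, edgeR without a block called 251 in embryonic and 55 in adult stroma, and DESeq2 called 379 and 170. Such totals are not given here for the contrasts alone, the stricter threshold or the fits that left out a library or culture. Those counts are descriptions of the 8 genes. As each library was left out, the number of genes called ran from 2 to 5 in embryonic stroma, 0 to 4 in adult stroma and 1 to 3 between the LPS groups, and it stayed at 0 for the interaction and between the PBS groups. With the replicate number as a block the calls were 5 and 4, and 3 to 5 and 4 to 4 as each culture was left out, and pairing added Arg2 in embryonic and Slc7a2 in adult stroma. In those fits the interaction turned to -0.021 for Slc7a2 without embryonic culture 2 and to -0.37 for Gch1 without embryonic culture 3. A block shared by the stages gave -0.33 for Slc7a2 between the PBS groups. No test called the other values that reversed. Between the PBS groups Slc7a2 was at -0.0052 on either strand, -0.0033 in DESeq2, -0.0030 with RLE factors and -0.00087 with filterByExpr, and Arg2 at 0.53 on either strand against -0.88 on the sense strand. As each library was left out, the difference between the PBS groups ran from -1.12 to 0.35 for Slc7a2 and from -0.59 to 0.067 for Gch1, that between the LPS groups from -0.23 to 0.97 and from -0.54 to 0.52, and the interaction from -0.23 to 1.63 and from -0.34 to 0.73. The cause of these shifts was not tested. Ass1, Arg1 and Ido1 held at most 27 counts in a library, so their ratios have wide counting intervals.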

Other observations

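Transcripts of proteins that act downstream of nitric oxide were counted as well. Their levels do not measure nitric oxide or its signal. All 6 listed genes of soluble guanylate cyclase, the nitric oxide receptor, and its effectors were tested, and 0 were called in either stroma. Prkg1, a kinase activated by cyclic GMP, was at 178 ± 19.5, 182 ± 17.9, 151 ± 6.79 and 142 ± 2.61 CPM (SD, n = 3) in embryonic PBS, embryonic LPS, adult PBS and adult LPS. Pde5a, which degrades cyclic GMP, was at 123 ± 88.1, 106 ± 67.0, 75.6 ± 54.3 and 61.4 ± 43.7 CPM. Over the 6 genes the log2 fold change had medians of -0.23 (embryonic) and -0.27 (adult).

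Of 6 genes of the aryl hydrocarbon receptor, to which kynurenine is a known ligand, 5 were tested and 0 were called. Cyp1b1, one of its targets, was at 885 ± 505, 1149 ± 291, 821 ± 186 and 1111 ± 376 CPM in the same order, and Tiparp, another target, at 59.2 ± 45.0, 66.6 ± 48.8, 52.1 ± 9.97 and 54.9 ± 23.8 CPM.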
